A study of Mus musculus with 6 samples.

Results

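The 46 genes described here, in bulk RNA of MCA205 tumors, form a list of antiviral and related genes classically induced by type I interferon, and each was found in the table by its gene symbol. They make up 46 of the 13963 genes that could be tested, and all 46 held reads and passed the minimum level. By role, 5 belong to the IFIT family of RNA-binding translation inhibitors and 6 to the OAS family of double-stranded RNA sensors. Another 3 are cytosolic RNA helicases, and 9 are further antiviral effectors such as *Rsad2*, *Mx1* and *Ifitm3*. The ubiquitin-like modifier *Isg15* stands with its partners and with PARP genes in a group of 8, and 4 genes encode transcription factors. The remaining groups are 5 schlafen genes and 6 other interferon-induced genes.

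Type I interferons are cytokines that nearly every cell can make when it senses foreign nucleic acid and nearly every cell can answer. They bind the IFNAR1 and IFNAR2 receptor chains, the kinases TYK2 and JAK1 pass the signal on to STAT proteins such as STAT2, and with IRF9 these form the complex ISGF3, which binds the interferon-stimulated response element (ISRE) in promoters. The genes switched on in this way encode proteins that bind foreign RNA, degrade it, block its translation or trap virus particles, and many of them also answer interferon-γ (IFN-γ).

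MCA205 is a mouse fibrosarcoma cell line that grows when transplanted under the skin, and RNA was sequenced from whole MCA205 tumors of 3 control mice and 3 mice given FF-10101. FF-10101 is a kinase inhibitor that binds the receptor tyrosine kinase FLT3 irreversibly and also inhibits CSF1R, the receptor on which tumor-associated macrophages (TAMs) depend. All recipients were female C57BL/6J mice, 7 weeks old, an inbred strain with an intact immune system. FF-10101 was dissolved in the drinking water at 0.1 mg/mL from day 1, controls drank MilliQ water, and tumors were taken on day 8. Every tumor came from the same cell line, so the design speaks for 1 tumor model at 1 time point.

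The tumors held 9143806 to 13258258 reads each, and 18467 to 19440 genes had at least 1 read. Levels below are normalized counts, that is, read counts scaled by 1 size factor per tumor. Log2 fold changes (FF-10101 over control) were computed on log2(normalized count + 1) and tested with limma, and p values were adjusted by Benjamini-Hochberg across all 13963 genes averaging at least 10 normalized counts. *Cx3cr1*, a gene of resident macrophages, was measured at 845, 1199 and 1219 in the control tumors and at 102, 114 and 73.8 in the FF-10101–treated tumors, so by this gene each tumor stood with its label. Control tumor 1 nevertheless stood apart from the other controls. Across genes, its log2 values correlated at 0.93 and 0.92 with control tumors 2 and 3, but at 0.95 to 0.96 with the FF-10101–treated tumors. *Krt8*, a keratin of simple epithelium, was at 0 in control tumor 1 against 454 and 491 in the other controls, and at 3.82, 0 and 0.889 in the treated tumors, so by this gene control tumor 1 stood with the treated group. *Krt18* had the same split, with 55.2, 717 and 643 in controls and 93.2, 61.9 and 87.1 in treated tumors. FF-10101–treated tumor 1 alone held *Krt14* above 100 (484). The main counts and the genes given with a test are therefore stated with and without control tumor 1.

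The first question was whether the interferon-induced genes differed between FF-10101–treated and control tumors. In FF-10101–treated tumors, 44 of the 46 genes (95.7%) had a higher mean log2 level than in controls, where 51.9% of all genes tested did. The median log2 fold change of the 46 was 0.77, and that of all genes tested was 0.02. Single genes ranged from -0.21 for *Slfn4* to 1.80 for *Ifit3b*, an RNA-binding member of the IFIT family. None of the 46 passed an adjusted p of 0.05 in limma, where the adjusted p of the members lay between 0.229 and 0.902. Over all genes, that threshold was passed by 6 genes (0.043%). At an unadjusted p under 0.05 limma picked 21 of the 46 (45.7%), all higher in FF-10101–treated tumors, against 8.77% of all genes. With limma-voom on the recovered reads, 0 of the 46 passed after adjustment (0.0358% of all genes did) and 24 had an unadjusted p under 0.05, all higher (8.8% of all genes). In 17 members (37%) every FF-10101–treated tumor lay above every control tumor, where 10.9% of all genes did so, and in 0 members did the groups separate in the other direction (9.37% of all genes). In whole tumors, more RNA per cell and more cells of a type that carries the RNA cannot be told apart.

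**Figure D1:**
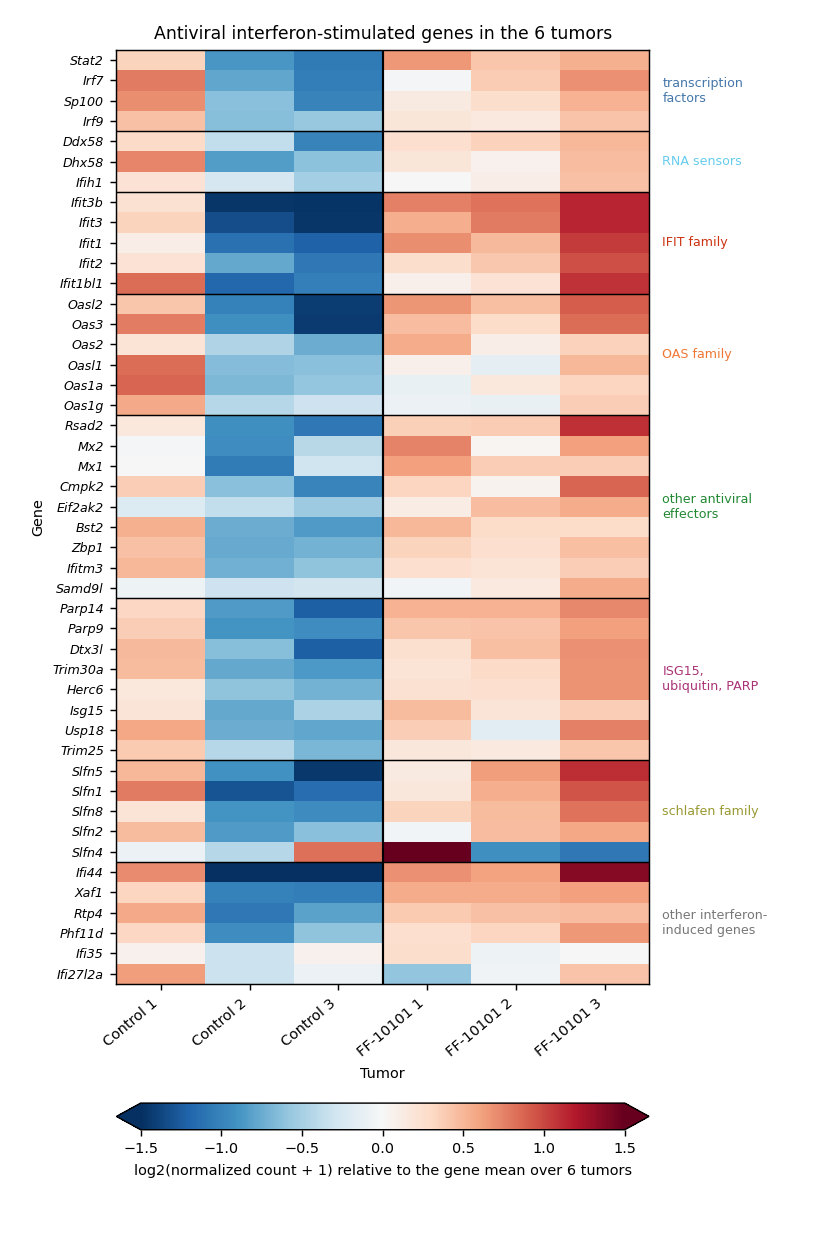
Each row is 1 of the 46 genes, grouped by role, and each column 1 tumor; color gives the log2(normalized count + 1) of the tumor minus the mean of the gene over the 6 tumors. Control tumors 2 and 3 are the lowest pair for 43 genes, and control tumor 1 lies above both of them for 45.

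The values of single tumors show where the groups overlapped. Control tumors 2 and 3 held the lowest pair of values in 43 of the 46 genes (93.5%), against 24.4% of all genes tested. Control tumor 1 lay above both of them in 45 members (97.8%), against 44.6% of all genes. Its level was over 1.5 times the mean of control tumors 2 and 3 in 42 members, against 22.6% of all genes. The median member was 2.36-fold higher in control tumor 1 than in the mean of the other controls, where the median of all genes was 1.02-fold. The range ran from 0.745-fold for *Slfn4* to 5.3-fold for *Ifi44*. Against that tumor, the FF-10101–treated mean was close to equal, at a median of 1.06-fold over the members. Against the mean of control tumors 2 and 3, the median was 2.24-fold.

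The mean centered log2 level of the 46 genes gives the same picture in 1 number per tumor. It was 0.39 in control tumor 1, -0.79 in control tumor 2 and -0.81 in control tumor 3. The FF-10101–treated tumors stood at 0.32, 0.27 and 0.61. The group means were -0.40 ± 0.69 (SD, n = 3) and 0.40 ± 0.18 (SD, n = 3), so the controls spread wider than the treated tumors, and control tumor 1 fell inside the treated range. Within the treated group, FF-10101–treated tumor 3 held the highest value of the 3 in 38 members (82.6%), against 35.3% of all genes.

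Control tumor 1 was singled out after its values were seen, and it lay above both other controls in 45 members. Leaving it out therefore widens the difference by construction. The adjusted p values without it, here and below, are descriptive. With control tumor 1 left out, 39 of the 46 genes (84.8%) passed an adjusted p of 0.05 in limma, all of them higher in FF-10101–treated tumors. In that comparison of 3 tumors with 2, 3051 of 13963 genes (21.9%) passed, and 12% passed as higher. The median log2 fold change of the members was then 1.14, and 43 of them did not overlap between the groups, beside 28.4% of all genes. The members that did not pass were *Oas1g*, *Ifih1*, *Mx2*, *Samd9l*, *Ifi27l2a*, *Ifi35* and *Slfn4*. Leaving out any other tumor gave 0 passing members. A limma fit that weights the tumors by how well they fit their group rested mainly on control tumor 2 (weight 5.39) and FF-10101–treated tumor 2 (8.08), with 0.139 to 0.859 for the other tumors, and it gave 43 passing members, but 59.9% of all genes passed there, 32% as higher.

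**Figure D2:**
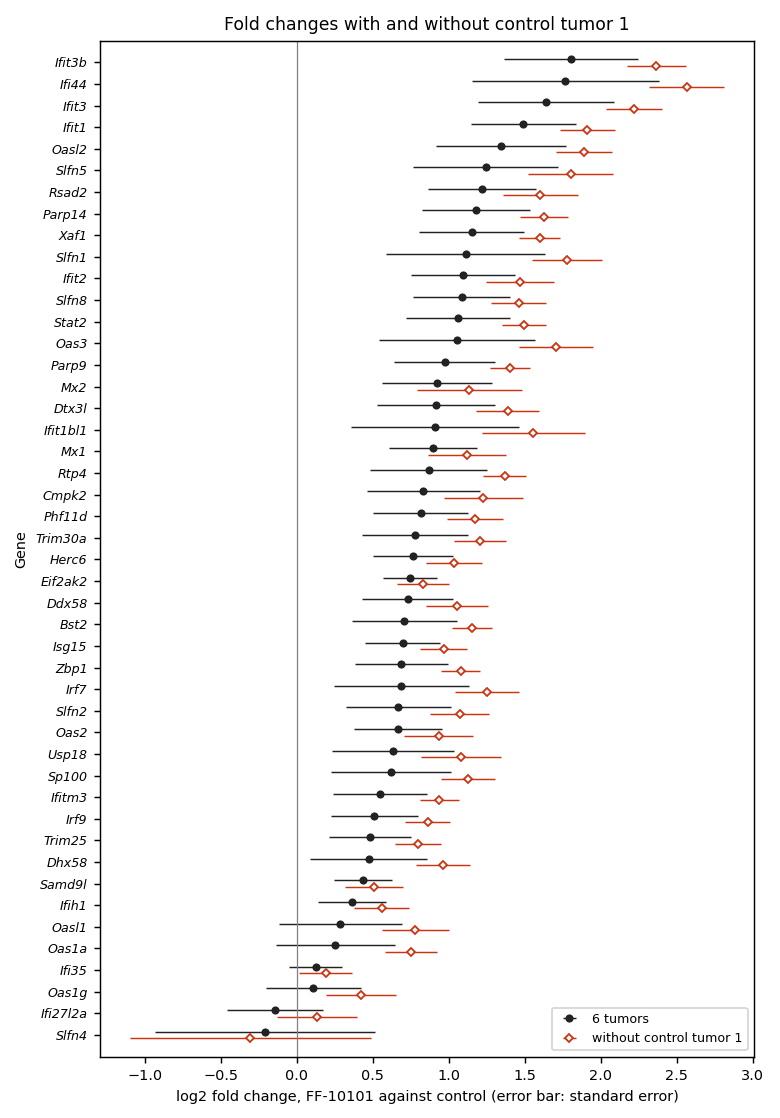
Log2 fold change (FF-10101 over control) of each of the 46 genes, with its standard error, from all 6 tumors and with control tumor 1 left out. With all tumors the members range from -0.21 to 1.80 around a median of 0.77, and without control tumor 1 the median is 1.14.

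Because these genes share a known control element, the promoters of members were read from RefSeq (GRCm38.p6), from 250 bases before to 50 bases after the start. The table holds 36 of the 46 members; *Parp14*, *Parp9*, *Usp18*, *Oas2*, *Dhx58*, *Mx1*, *Mx2*, *Zbp1*, *Ifi27l2a* and *Rtp4* were not matched. The search used the ISRE core GAAANNGAAA and the STAT site (GAS) TTCNNNGAA on both strands, where N is any base. The sequences shown are of *Isg15*, which has the most ISRE cores of these, of *Ifit3*, the IFIT gene of highest level, and of *Irf7* and *Slfn2*, abundant members in which neither motif was found. Capitals mark the bases of ISRE cores. *Isg15* lies at chr4:156200769-156201068 on the minus strand and *Ifit3* at chr19:34583279-34583578 on the plus strand. *Irf7* lies at chr7:141266375-141266674 on the minus strand and *Slfn2* at chr11:83064862-83065161 on the plus strand. Each is written 5′ to 3′ along its gene.
Isg15: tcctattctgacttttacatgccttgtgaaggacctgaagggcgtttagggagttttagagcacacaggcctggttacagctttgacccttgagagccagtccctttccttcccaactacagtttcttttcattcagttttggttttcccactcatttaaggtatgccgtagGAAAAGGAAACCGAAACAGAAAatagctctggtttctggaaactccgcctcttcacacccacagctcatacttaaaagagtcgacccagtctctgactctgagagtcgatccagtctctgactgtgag
Ifit3: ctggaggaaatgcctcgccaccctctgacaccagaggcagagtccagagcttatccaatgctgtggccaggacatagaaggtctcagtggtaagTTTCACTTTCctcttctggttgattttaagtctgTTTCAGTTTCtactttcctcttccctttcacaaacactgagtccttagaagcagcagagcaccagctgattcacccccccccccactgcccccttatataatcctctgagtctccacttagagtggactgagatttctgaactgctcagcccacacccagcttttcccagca
Irf7: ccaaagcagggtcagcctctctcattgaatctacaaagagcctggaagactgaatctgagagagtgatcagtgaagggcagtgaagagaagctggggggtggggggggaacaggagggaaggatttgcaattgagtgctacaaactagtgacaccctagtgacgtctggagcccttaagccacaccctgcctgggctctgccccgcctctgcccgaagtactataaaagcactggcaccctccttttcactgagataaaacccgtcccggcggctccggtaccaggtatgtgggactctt
Slfn2: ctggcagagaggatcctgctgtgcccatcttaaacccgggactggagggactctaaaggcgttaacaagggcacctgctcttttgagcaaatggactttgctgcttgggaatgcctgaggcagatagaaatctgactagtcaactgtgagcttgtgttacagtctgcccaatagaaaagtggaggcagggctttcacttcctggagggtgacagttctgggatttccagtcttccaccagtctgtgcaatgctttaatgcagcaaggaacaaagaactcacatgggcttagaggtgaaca

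The *Isg15* promoter held 3 overlapping ISRE cores in 1 run, and that of *Ifit3* held 2 separate cores that read on the opposite strand. Over the members, 18 of 36 (50%) had an ISRE core in the window, compared with 3.99% of the 27025 genes in the table. A GAS was found for 6 of 36 (16.7%), compared with 9.55% of genes. Neither motif was found for 16 (44.4%), compared with 87.1% of genes. A match is a stretch of letters and not a measured binding site, and an absent match says only that these letters are not in the window. The 18 members with a core had a median log2 fold change of 0.84, and the 18 without one had 0.73. Every treated tumor lay above every control in 8 of the former and 5 of the latter (10.9% of all genes). *Irf7* and *Slfn2*, without either motif here, were 3.2-fold and 2.31-fold higher in control tumor 1 than in the mean of the other controls, and *Isg15* and *Ifit3* were 1.75-fold and 3.32-fold higher.

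**Figure D3:**
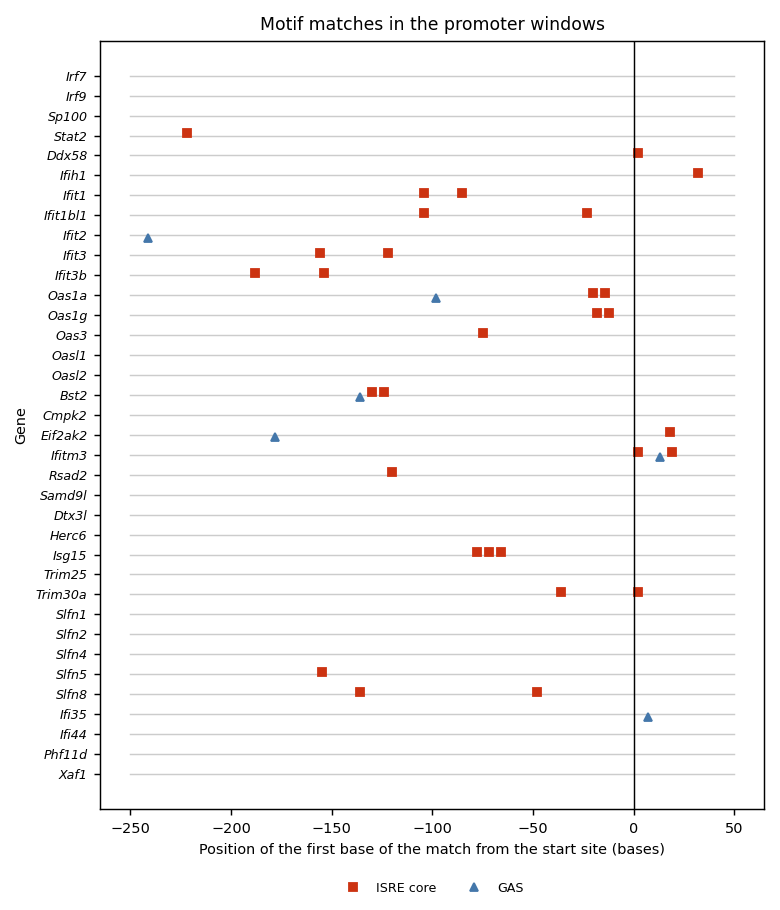
Positions of ISRE cores and GAS matches, in bases from the start of the gene, in the promoters of the 36 members found in the RefSeq table. Of these, 18 have at least 1 ISRE core, 6 have a GAS and 16 have neither.

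The IFIT family showed the highest fold changes of any role group, with a median log2 fold change of 1.49 over its 5 genes. *Ifit3*, which restricts the growth of RNA viruses, measured 1075, 338 and 309 in the control tumors and 1249, 1464 and 1882 in the FF-10101–treated tumors. Every treated tumor lay above every control, with control tumor 1 nearest to them. Its log2 fold change was 1.64 ± 0.45 (SE, n = 3 per group; limma adjusted p = 0.229), and 2.22 without control tumor 1 (limma adjusted p = 0.000599). *Ifit1*, which binds RNA that lacks the host cap methylation, measured 657, 283 and 265 in controls and 1000.5, 865 and 1270.2 in treated tumors. The groups again did not overlap, and the log2 fold change was 1.49 ± 0.35 (SE, limma adjusted p = 0.229; 1.91 without control tumor 1, limma adjusted p = 0.000884). *Ifit3b*, a close copy of *Ifit3*, had the highest fold change of all 46 members, with 204, 63 and 62.1 in controls and 294, 306 and 387 in treated tumors (log2 1.80 ± 0.44 SE, limma adjusted p = 0.229; 2.37 without control tumor 1, limma adjusted p = 0.000582). The copies share sequence: 61.8% of the 31-base words of *Ifit3* transcripts occur in *Ifit3b*, so Salmon, the quantification tool, divided such reads between them by estimate. *Ifit2*, which restricts neurotropic RNA viruses in mice, had a log2 fold change of 1.09, and its groups did not overlap either. *Ifit1bl1*, a less studied relative of *Ifit1*, differed from the others. It measured 139.6, 33.7 and 37.7 in controls and 81.7, 90.1 and 165 in treated tumors, with control tumor 1 above the lower treated values (log2 0.91 ± 0.55 SE, limma adjusted p = 0.438; 1.56 without control tumor 1, limma adjusted p = 0.0167). Over the family, 4 of 5 genes had all treated tumors above control tumor 1 (29.6% of all genes), and the median ratio of the treated mean to that tumor was 1.42.

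**Figure D4:**
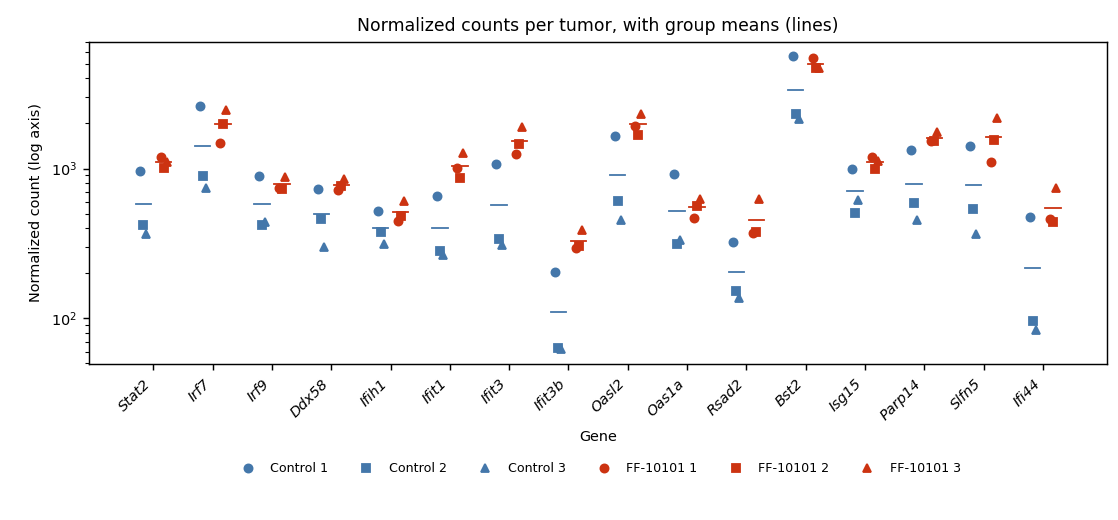
Normalized counts (log axis) of selected members in each of the 6 tumors, 1 point per tumor, with the group means. *Ifit1*, *Ifit3* and *Parp14* separate the groups, whereas *Irf7* and *Oas1a* are highest in control tumor 1.

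Active OAS enzymes make a short RNA messenger that switches on RNase L, an enzyme that cuts viral and cellular RNA. The 6 listed genes of the family, the OAS-like *Oasl1* and *Oasl2* included, had a median log2 fold change of 0.48. All 6 were higher in mean log2 level in FF-10101–treated tumors, and 1 of the 6 had every treated tumor above every control (10.9% of all genes). That gene was *Oasl2*, an OAS-like protein, at 1639, 609 and 455 in controls and 1935, 1671 and 2301 in treated tumors (log2 1.34 ± 0.43 SE, limma adjusted p = 0.238; 1.89 without control tumor 1, limma adjusted p = 0.001). FF-10101–treated tumor 2 and control tumor 1 were nearly equal. *Oas1a* measured 919.7, 315 and 335 in controls and 464, 562 and 630.2 in treated tumors. Control tumor 1 was the highest of all 6 tumors, while the other controls were the lowest, and the log2 fold change was 0.25 ± 0.39 (SE, limma adjusted p = 0.767). Without control tumor 1 it was 0.75 (limma adjusted p = 0.0192). *Oas1g* had the lowest fold change of the family, at 177, 88 and 95.4 in controls and 112, 109.6 and 153 in treated tumors (log2 0.11 ± 0.31 SE, limma adjusted p = 0.879; 0.42 without control tumor 1, limma adjusted p = 0.218). It shares 54.6% of its 31-base words with *Oas1a*, so its counts were separable only in part. *Oasl1* was likewise highest in control tumor 1, with a log2 fold change of 0.29 (0.78 without control tumor 1). *Oas2* and *Oas3* had log2 fold changes of 0.67 and 1.06. The treated mean was 0.781 times control tumor 1 for the median gene of this family, below the ratio for the IFIT genes.

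The cytosolic RNA helicases sense viral RNA upstream of interferon and are themselves interferon-induced. *Ddx58*, which encodes the sensor RIG-I, measured 729, 463 and 298 in controls and 716, 762 and 846 in treated tumors. Only FF-10101–treated tumor 1 fell below control tumor 1, and the log2 fold change was 0.73 ± 0.30 (SE, limma adjusted p = 0.293; 1.05 without control tumor 1, limma adjusted p = 0.011). *Ifih1*, which encodes MDA5, the sensor of long double-stranded RNA, measured 518, 375 and 314 in controls and 445, 479 and 607 in treated tumors (log2 0.36 ± 0.22 SE, limma adjusted p = 0.447; 0.56 without control tumor 1, limma adjusted p = 0.062). Here control tumor 1 exceeded a pair of treated tumors. *Dhx58*, which encodes LGP2, a helicase that tunes the other sensors, was highest in control tumor 1 at 613. Its log2 fold change was 0.47 (0.96 without control tumor 1).

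Among the 9 other antiviral effectors, all were higher in mean log2 level in FF-10101–treated tumors, with a median log2 fold change of 0.75, and in 5 every treated tumor lay above every control (10.9% of all genes). *Rsad2* encodes viperin, an enzyme that makes a chain-terminating nucleotide. It measured 323, 153 and 138 in controls and 372, 377 and 621 in treated tumors, with no overlap (log2 1.22 ± 0.36 SE, limma adjusted p = 0.229; 1.60 without control tumor 1, limma adjusted p = 0.00507). *Cmpk2*, its genomic neighbor and a nucleotide kinase, had a log2 fold change of 0.83, and its control tumor 1 value of 307 lay among the treated values. *Eif2ak2* encodes PKR, the kinase that stops translation on double-stranded RNA. It measured 487, 435 and 385 in controls and 607, 773 and 825 in treated tumors. In this gene control tumor 1 lay close to its own group, at 1.19-fold the mean of the other controls, and the log2 fold change was 0.75 ± 0.18 (SE, limma adjusted p = 0.229; 0.83 without control tumor 1, limma adjusted p = 0.0143). *Samd9l*, a restriction factor that halts translation, had the lowest fold change of the group. It measured 484, 409.7 and 422 in controls and 493, 562 and 748 in treated tumors. The groups did not overlap, yet control tumor 1 and FF-10101–treated tumor 1 were almost level (log2 0.44 ± 0.19 SE, limma adjusted p = 0.313; 0.51 without control tumor 1, limma adjusted p = 0.0942). The dynamin-like GTPases *Mx1* and *Mx2* had log2 fold changes of 0.90 and 0.92, each without overlap, at low levels. *Mx2* reached at most 68 normalized counts in any tumor.

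The membrane proteins among the effectors were the most abundant. Per kilobase of the longest coding transcript, *Ifitm3*, which blocks virus entry at endosomes, had the highest level of the 46, with a mean of 7752 normalized counts. *Bst2*, which encodes tetherin, a protein that holds budding virus on the cell, followed at 5246 per kilobase. The lowest were *Mx2* at 18 and *Slfn4* at 20.9 per kilobase. In normalized counts, *Ifitm3* measured 7076, 3019.9 and 3296 in controls and 5952, 5754 and 6439.8 in treated tumors, so control tumor 1 was above all treated tumors (log2 0.55 ± 0.31 SE, limma adjusted p = 0.406; 0.94 without control tumor 1, limma adjusted p = 0.00366). *Bst2* was likewise highest in control tumor 1, with 5611, 2301 and 2148 in controls and 5478, 4693 and 4700.3 in treated tumors (log2 0.71 ± 0.35 SE, limma adjusted p = 0.351; 1.15 without control tumor 1, limma adjusted p = 0.00181). *Zbp1*, a sensor of left-handed nucleic acid that can start cell death, had a log2 fold change of 0.69.

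The group of *Isg15*, ubiquitin and PARP genes had 8 members, all higher in mean log2 level in FF-10101–treated tumors, with a median log2 fold change of 0.77. *Isg15*, whose product is attached to other proteins, measured 986, 506 and 620.1 in controls and 1197, 989 and 1116 in treated tumors. The groups were separate by the narrow gap between control tumor 1 and FF-10101–treated tumor 2 (log2 0.70 ± 0.25 SE, limma adjusted p = 0.254; 0.97 without control tumor 1, limma adjusted p = 0.0058). *Parp14*, a mono-ADP-ribosyltransferase, measured 1322, 590.1 and 455 in controls and 1526, 1535 and 1754 in treated tumors (log2 1.18 ± 0.36 SE, limma adjusted p = 0.229; 1.63 without control tumor 1, limma adjusted p = 0.000926). All treated tumors lay above control tumor 1, and the treated values were close to each other. *Parp9*, which works in a pair with *Dtx3l*, measured 1394, 576 and 562 in controls and 1430.5, 1450.4 and 1647 in treated tumors (log2 0.97 ± 0.33 SE, limma adjusted p = 0.25; 1.40 without control tumor 1, limma adjusted p = 0.000831). *Dtx3l*, the E3 ligase of that pair, had a log2 fold change of 0.92, but its groups overlapped. *Herc6*, the main ligase for ISG15 in the mouse, had 0.76 without overlap. *Trim25*, the ligase that acts on RIG-I, had the lowest fold change of the group, at 1371, 775 and 651 in controls and 1173, 1156 and 1396 in treated tumors (log2 0.48 ± 0.27 SE, limma adjusted p = 0.401; 0.80 without control tumor 1, limma adjusted p = 0.0106). *Trim30a* had a log2 fold change of 0.78. *Usp18*, which removes ISG15 and dampens the receptor, had 0.64, with 209.5 in FF-10101–treated tumor 2 against 351 in control tumor 1.

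The transcription factors carry the signal to the promoters. *Stat2*, the STAT protein particular to type I and type III interferon signaling, measured 962, 417 and 366 in controls and 1198, 1015 and 1102 in treated tumors. It was the single factor of the 4 whose groups did not overlap (log2 1.06 ± 0.34 SE, limma adjusted p = 0.238; 1.49 without control tumor 1, limma adjusted p = 0.000906). Its partner *Irf9* measured 890.4, 421 and 439 in controls and 744, 727 and 883 in treated tumors. Control tumor 1 was the highest of the 6, narrowly above FF-10101–treated tumor 3 (log2 0.51 ± 0.29 SE, limma adjusted p = 0.404; 0.86 without control tumor 1, limma adjusted p = 0.00739). *Irf7*, which drives the amplifying phase of interferon production, measured 2605, 887 and 743 in controls and 1488, 1976 and 2447 in treated tumors (log2 0.69 ± 0.45 SE, limma adjusted p = 0.466; 1.25 without control tumor 1, limma adjusted p = 0.00712). Control tumor 1 was again the highest, and the treated tumors spread more widely than for *Stat2*. *Sp100*, a nuclear body protein, had the same order, with a log2 fold change of 0.62 (1.13 without control tumor 1).

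The schlafen genes, which are expressed in lymphoid and myeloid cells, included both high fold changes and the lowest of the list. *Slfn5* had the highest fold change, at 1424, 537 and 368 in controls and 1107, 1554 and 2174 in treated tumors (log2 1.24 ± 0.48 SE, limma adjusted p = 0.275; 1.80 without control tumor 1, limma adjusted p = 0.00554). *Slfn2*, needed for the quiescence of T cells, was the most abundant, with 2707, 1081 and 1261 in controls and 1900.2, 2676 and 2915 in treated tumors (log2 0.67 ± 0.34 SE, limma adjusted p = 0.367; 1.07 without control tumor 1, limma adjusted p = 0.00952). In both genes control tumor 1 lay among the treated tumors. *Slfn1* and *Slfn8* had log2 fold changes of 1.11 and 1.08, and only *Slfn8* was without overlap. *Slfn8* shares 19.1% of its 31-base words with *Slfn9*. *Slfn4* was the exception of the whole list. It measured 60.8, 47.8 and 115 in controls and 209, 33.7 and 30.2 in treated tumors, so FF-10101–treated tumor 1 was the highest and the other treated tumors the lowest of the 6. Its log2 fold change was -0.21 ± 0.72 (SE, limma adjusted p = 0.902), which became -0.30 without control tumor 1, -1.10 without FF-10101–treated tumor 1 and 0.28 without FF-10101–treated tumor 3.

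Of the other interferon-induced genes, *Ifi44*, a cytoplasmic protein, had the highest fold change. It measured 474, 95.6 and 83.2 in controls and 464, 439.7 and 743 in treated tumors. Control tumor 1 was 5.3-fold above the mean of the other controls, the highest such ratio in the list, and the log2 fold change was 1.77 ± 0.61 (SE, limma adjusted p = 0.252; 2.57 without control tumor 1, limma adjusted p = 0.000906). *Rtp4*, which dampens type I interferon responses, measured 1182, 380.3 and 458 in controls and 1050.1, 1082 and 1103 in treated tumors (log2 0.87 ± 0.38 SE, limma adjusted p = 0.315; 1.37 without control tumor 1, limma adjusted p = 0.00112). *Xaf1*, a proapoptotic gene, had closely spaced treated values, with 742, 745 and 777 against 630.4, 251 and 246 in controls (log2 1.15 ± 0.34 SE, limma adjusted p = 0.229; 1.60 without control tumor 1, limma adjusted p = 0.000599). *Phf11d* had a log2 fold change of 0.81. *Ifi27l2a*, a small hydrophobic protein, was the most abundant of the group and, with *Slfn4*, was 1 of the 2 members with a lower mean log2 level in treated tumors. It measured 1989, 1028 and 1212 in controls and 857, 1237 and 1732 in treated tumors (log2 -0.14 ± 0.32 SE, limma adjusted p = 0.84), and its sign turned to 0.13 without control tumor 1. *Ifi35*, a protein with a leucine zipper, measured 773, 590.1 and 772 in controls and 886, 698 and 739 in treated tumors, with overlapping groups and a log2 fold change of 0.12.

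The members stood in different positions against control tumor 1, at shares near those of all genes. In 17 of the members (37%) all FF-10101–treated tumors lay above it, against 29.6% of all genes. These were the same 17 genes whose groups did not overlap. In 11 members (23.9%) control tumor 1 was the highest of the 6 tumors, against 20.4% of all genes. These 11 were *Oas1a*, *Oas1g*, *Oasl1*, *Dhx58*, *Bst2*, *Ifitm3*, *Ifi27l2a*, *Rtp4*, *Irf7*, *Irf9* and *Sp100*. They included 3 of 6 OAS genes and 3 of 4 transcription factors but 0 of 5 IFIT genes and 0 of the 8 genes grouped with *Isg15*. These counts, those by role included, describe single tumors and few genes and carry no test.

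**Figure D5:**
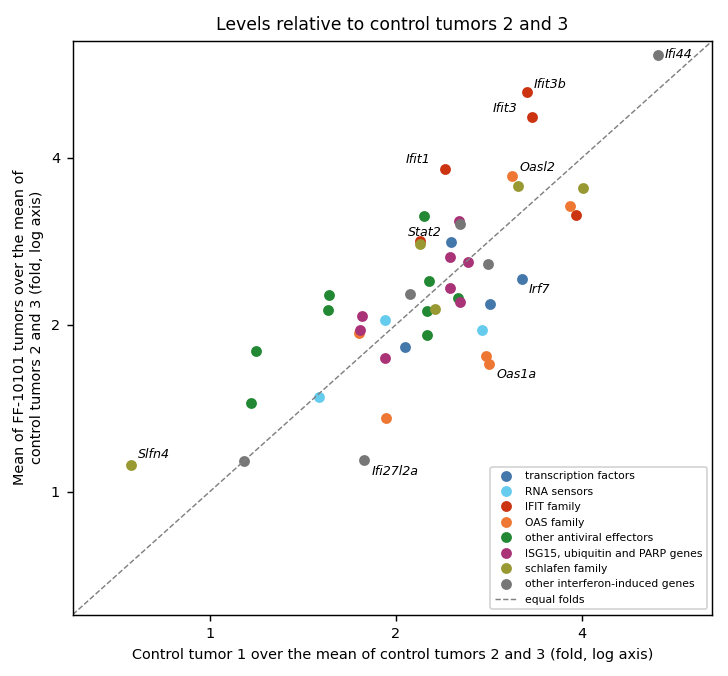
For each of the 46 genes, the level in control tumor 1 (horizontal) and the mean of the FF-10101–treated tumors (vertical), each as a fold of the mean of control tumors 2 and 3, on log axes, colored by role. The medians are 2.36-fold and 2.24-fold, the IFIT genes lie above the line of equality except *Ifit1bl1*, and *Oas1a*, *Irf7* and *Ifitm3* lie below it.

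The wider pathway was read from lists of other interferon genes. All 17 type I interferon ligand genes in the table had 0 reads in all 6 tumors, which allows up to 3 reads per tumor, or 2.29 to 3.38 normalized counts. The type III ligands *Ifnl2* and *Ifnl3* were likewise at 0. *Ifng*, the type II interferon made by T and NK cells, was detected at 146, 25 and 11.1 in controls and 132, 115 and 188 in treated tumors. Control tumor 1 stood with the treated tumors, as it did in the mean level of the 46 genes. The log2 fold change of *Ifng* was 1.99 ± 0.80 (SE, limma adjusted p = 0.29), and 3.01 without control tumor 1 (limma adjusted p = 0.00272). With all 6 tumors none of the 5 receptor chains tested passed (log2 fold changes from -0.38 to 0.18). Without control tumor 1, when 21.9% of all genes passed, *Ifnar2* passed as higher (0.51, limma adjusted p = 0.0453) and *Ifngr2* as lower (-0.46, limma adjusted p = 0.0461). *Ifnar1* measured 1175, 1155 and 1239 in controls and 897, 1207 and 1236 in treated tumors (log2 -0.11), *Ifnar2* had a log2 fold change of 0.18 and *Ifngr1* 0.17, and *Ifngr2* had -0.38 with every treated tumor below every control. *Ifnlr1*, the type III receptor chain, was under the minimum level.

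Of 8 genes of JAK-STAT signaling, 7 were higher in mean log2 level in FF-10101–treated tumors, with a median log2 fold change of 0.41. *Jak2*, a kinase of the type II receptor, had a log2 fold change of 0.80, and *Jak1* and *Tyk2*, the kinases of the type I receptor, had 0.43 and -0.19. The feedback inhibitors *Socs1* and *Socs3* had 0.50 and 0.38. Without control tumor 1, 6 of the 8 passed (21.9% of all genes), all higher (12%). The 13 nucleic acid sensing genes had a median of 0.16, with *Irf3* lowest at -0.40 and *Tlr3* highest at 0.62. Without control tumor 1, 4 of the 13 passed, where 21.9% of all genes did. Among 32 other interferon-stimulated genes, all 32 were higher in mean log2 level, with a median of 0.38, and 6 had every treated tumor above every control (10.9% of all genes). Without control tumor 1, 30 of the 32 were higher, 15 passed (21.9% of all genes) and 26 had every treated tumor above both other controls (28.4%), while *Pnpt1* and *Slfn9* turned to -0.15 and -0.0094. With all 6 tumors, *Ifit1bl2*, at no more than 32 normalized counts in any tumor, was highest among them at 1.62 and *Pnpt1* lowest at 0.03, and *Ly6e* was the most abundant, at 26532, 16676 and 15903 in controls and 23453, 22481 and 22015 in treated tumors.

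The 14 genes induced mainly by IFN-γ had a median log2 fold change of 0.44, with 12 of 14 higher in mean log2 level. *Nos2*, the inducible nitric oxide synthase, had the highest, at 215, 32.6 and 36.6 in controls and 279, 334 and 623 in treated tumors (log2 2.58 ± 0.69 SE, limma adjusted p = 0.229; 3.45 without control tumor 1, limma adjusted p = 0.000892). *H2-DMa*, a class II antigen-loading gene, had the lowest at -0.19, which became 0.33 without control tumor 1, when 14 of 14 genes were higher. The median of the list was also higher without control tumor 1, with single genes from 0.30 for *Fcgr1* to 3.45 for *Nos2*. *Cd74*, the class II invariant chain, was the most abundant, and control tumor 1 held 76577 of it against 30052 to 50109 in treated tumors. In this list control tumor 1 was the highest of the 6 tumors in 9 of 14 genes, and the treated mean was 0.633 times control tumor 1 for the median gene. For the 32 other interferon-stimulated genes the same counts were 10 of 32 and 0.931. Over all pathway lists together, 65 of 75 tested genes were higher in mean log2 level, and 0 passed an adjusted p of 0.05 in limma, beside 14 higher (8.77% of all genes) and 1 lower at an unadjusted p under 0.05. Without control tumor 1, 39 of the 75 passed (21.9% of all genes), 38 of them higher (12%).

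Markers of the cells that a tumor can hold varied with the members in part. The summed level of 5 monocyte markers was 9658, 4840 and 4424 in controls and 7046, 8984 and 11757 in treated tumors, and none of the 5 was at 0 throughout. For 7 T cell markers it was 2704, 1213 and 1184 in controls and 1323, 2158 and 2447 in treated tumors. For 5 NK cell markers it was 1159, 785 and 995 in controls and 902, 1379 and 1405 in treated tumors. In each list control tumor 1 was the highest control, as it was in 45 of the 46 members, although the NK marker *Klra4* was lowest of the 6 tumors there (283). FF-10101–treated tumor 1 was the lowest treated tumor in all 3 lists, whereas the 46-gene level was 0.32 there and 0.27 in FF-10101–treated tumor 2. The sum of 7 macrophage markers had another order, with 59669, 34078 and 34521 in controls and 21301, 29784 and 29568 in treated tumors. *Adgre1*, *C1qa*, *C1qb* and *C1qc* had every treated tumor below every control (9.37% of all genes). *Cd68*, *Csf1r* and *Mertk* overlapped, with log2 fold changes of -0.13, -0.25 and 0.14, or 0.28, 0.14 and 0.33 without control tumor 1. Markers of plasmacytoid dendritic cells, a main source of type I interferon, summed to 124 to 216 in controls and 123 to 239 in treated tumors. Of these, *Cox6a2* measured 96.8, 36.9 and 46.6 in controls and 36.7, 99.9 and 61.3 in treated tumors. That is the order of the skeletal muscle sums (4990, 2211 and 3471 in controls, 2177, 7554 and 4603 in treated tumors). *Siglech* measured 27, 25 and 26.6 in controls and 22.9, 22.8 and 59.6 in treated tumors. Mesenchymal markers, which the fibrosarcoma cells carry, summed to 296604, 153269 and 120210 in controls and 340902, 252602 and 238361 in treated tumors. As in the mean level of the 46 genes, control tumors 2 and 3 were the lowest pair and control tumor 1 lay within the treated range. The monocyte sums had this order too. The collagens and *Sparc* make up most of the mesenchymal sum, whereas *Vim* had another order, at 36521, 32046 and 30502 in controls and 28119.7, 28620.2 and 31914 in treated tumors. Other orders were also seen for *Fn1* (15806.5, 15773.5 and 8085 against 15882, 10902 and 12870) and *Pdgfrb* (1203, 1292 and 770 against 1889, 1427 and 1212). Among the monocyte markers *Ccr2* and *Vcan* had log2 fold changes of -0.30 and 0.27, against 1.49 to 2.52 for *Ly6c2*, *Plac8* and *Chil3*. Control tumor 1 was the highest control for the macrophage, plasmacytoid dendritic cell and skeletal muscle sums as well. *Ly6g*, which defines mouse neutrophils, was at 0 in all tumors but FF-10101–treated tumor 1 (0.764), although the 7 neutrophil markers summed to 1927 to 2276 in controls and 2737 to 3197 in treated tumors. In that list *S100a8*, *S100a9*, *Csf3r* and *Cxcr2* were lowest in control tumors 2 and 3, as the 46 genes were in most cases, whereas *Mmp9*, the largest part of the sum in controls, ran from 800.3 in control tumor 1 to 1537 in control tumor 2. The part of these cell markers in the levels of the 46 genes was not tested.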

How the data were processed

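RNA sequencing was performed on 3 control and 3 FF-10101–treated MCA205 tumors, described as biological replicates. Per the submitters' processing notes and methods, reads were handled with fastp (0.19.5), Salmon (1.5.1, mouse GENCODE transcripts) and DESeq2 (1.22.1). The authors deposited a table of log2 values after the variance-stabilizing transformation of DESeq2, not normalized counts as had been assumed when the test was planned. The transformation was inverted, and 100% of 325854 values came out as whole reads (largest gap 4.16e-09), estimates that the upstream tool chain had rounded. Read totals were 9143806 to 13258258 per tumor, and precision is limited by the 3 tumors per group. Intervals for undetected genes (3 reads) cover counting error only.

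Reads divided by the size factors were tested with limma 3.58.1 (R 4.3.3; group term, trend) on log2(normalized count + 1), across the 13963 genes averaging 10 or more, and p values were adjusted by Benjamini-Hochberg. The fit was also run on simulated data. Symbols were matched for 51484 of 54309 identifiers. Every member is named; within each role group, values in every tumor are given for the genes highest in level and at the extremes of fold change, and for others where stated. *Eif2ak2*, *Isg15*, *Xaf1* and *Ifi35* were added in full after their values were seen. The members and lists were chosen with earlier results of these data known. With 3 tumors per group an exact permutation test cannot go below 0.1, so none was used. Alternatives comprised scaling, pseudocount, minimum level, limma-voom, array weights, a replicate block, summed near-identical genes and leaving out each tumor. Promoters came from RefSeq GRCm38.p6; coordinates were not carried to the build of the counts. The values of 1 gene of the pathway lists are not reported here.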

Additional observations from a re-analysis of the deposited data

How the results depend on the processing

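The direction of most members did not depend on the processing, but the number that passed the adjusted threshold depended on control tumor 1. With array weights 43 of 46 members and 61 of 75 pathway genes passed. Leaving out each tumor in turn gave 0 to 39 passing members, 0 to 39 passing pathway genes and 17 to 43 members without overlap, with the upper value in each case without control tumor 1. The median log2 fold change of the members ranged from 0.57 to 1.14 over these. Array weights and the fit without control tumor 1 moved the calls of all genes from 6 to 8365 and 3051. Pseudocount, scaling, quantile normalization, minimum level, limma-voom, the deposited log2 values and summing of near-identical genes gave 0 passing members. The sign turned for *Ifi27l2a*, to 0.25 with array weights and to 0.13 and 0.11 without control tumor 1 and FF-10101–treated tumor 1, in a range of -0.39 to 0.13 over the tumors left out. That range was -0.0187 to 0.75 for *Oas1a* (below 0 without control tumor 2), -0.0758 to 0.42 for *Oas1g* (below 0 without control tumor 2, control tumor 3 or FF-10101–treated tumor 3) and -1.10 to 0.28 for *Slfn4* (above 0 without control tumor 3 or FF-10101–treated tumor 2 or 3). *Ifi35* also turned, to -0.0047 without control tumor 2, and the cause of these turns was not tested. Same-numbered tumors did not deviate together (correlations -0.288, -0.0397 and -0.277), so the numbers pair nothing, and a replicate block gave 0 passing members and 19 at an unadjusted p under 0.05, all higher, where 818 of 13963 genes were higher at that p. For the undetected type I interferon ligands, depth limits the statement to at most 3 reads per tumor.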
